A study of Mus musculus with 11 samples.

Results

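Oligodendrocytes and astrocytes are the glia of the brain and spinal cord. The mouse dorsal root ganglion (DRG) lies outside the cord, and its own glia are satellite glial cells (SGCs) and Schwann cells. The 10 genes described here are used as markers of central glia or of cord neurons, and were chosen by name as an index of spinal cord or root attached to a dissected ganglion: *Mobp*, *Mog*, *Opalin*, *Olig1* and *Olig2* for oligodendrocytes, *Slc1a2*, *Slc6a11*, *Agt* and *Aqp4* for astrocytes, and *Slc6a5* for glycinergic neurons. They were chosen with earlier results of these data known. All 10 are among the 36670 genes of the deposited RNA-Seq table.

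The table holds 11 DRG libraries from WT mice and from mice lacking *Gpr37l1* (KO), each as control or 4 weeks after paclitaxel (PTX), a chemotherapy drug that causes neuropathic pain. There were 3 WT control, 3 WT PTX, 3 KO control and 2 KO PTX libraries, and replicate 3 of each group was from a female and the others from males. The labels give no age, strain or PTX dose for these mice. The study's methods describe a targeted allele of *Gpr37l1* kept on a C57BL/6 background, so the KO is in all cells, and whether a library pools ganglia of more than 1 mouse is not given in the sources used here. Because the labels do not say that libraries are separate mice, p-values measure the spread between these libraries. *Gpr37l1*, the deleted receptor of SGCs, was at 32.7 ± 4.48 FPKM (SD, n = 3) in WT control, 23.8 ± 8.65 FPKM (n = 3) in WT PTX, 0.25 ± 0.04 FPKM (n = 3) in KO control and 0.875 ± 0.389 FPKM (n = 2) in KO PTX libraries, in the order of the genotype labels. FPKM, the fragments counted per length of transcript and per size of library, is a level per length and can be compared between genes.

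Myelin around central axons is made by oligodendrocytes, whereas Schwann cells make it in peripheral nerve and root. *Mbp* and *Mag* are used by both cells, while MOBP, MOG and Opalin are proteins of central myelin, and OLIG1 and OLIG2 are the transcription factors of the oligodendrocyte lineage. Astrocytes clear glutamate and GABA from synapses and regulate water and ions at their endfeet. SGCs share several astrocyte genes, so that an astrocyte gene in a DRG library need not come from the cord.

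Promoters of the members that encode central myelin proteins are shown first, because these genes moved together between libraries. The windows run from 250 bases before to 50 bases after the RefSeq transcription start (build GRCm38.p6). Matches are given for 8 of 10 members, without *Olig1* and *Aqp4*. Capitals mark ACAAAG, a motif of SOX factors such as SOX10, or CTGGNAC, a motif of the oligodendrocyte factor MYRF, on either strand. The windows are chr9:120149492-120149791 on the plus strand for *Mobp*, chr17:37023349-37023648 on the minus strand for *Mog* and chr19:41077064-41077363 on the minus strand for *Opalin*.
Mobp: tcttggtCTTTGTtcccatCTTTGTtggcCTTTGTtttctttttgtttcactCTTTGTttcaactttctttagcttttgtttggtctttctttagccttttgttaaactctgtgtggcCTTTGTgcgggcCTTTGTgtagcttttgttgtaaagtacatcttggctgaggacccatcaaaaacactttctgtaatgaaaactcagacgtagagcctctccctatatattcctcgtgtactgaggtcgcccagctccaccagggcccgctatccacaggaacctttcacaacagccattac
Mog: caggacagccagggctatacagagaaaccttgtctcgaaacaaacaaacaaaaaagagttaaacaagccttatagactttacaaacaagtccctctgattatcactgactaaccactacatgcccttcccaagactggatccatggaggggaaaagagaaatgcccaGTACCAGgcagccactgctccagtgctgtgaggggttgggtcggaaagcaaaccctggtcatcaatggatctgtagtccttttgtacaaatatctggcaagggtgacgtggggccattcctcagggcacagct
Opalin: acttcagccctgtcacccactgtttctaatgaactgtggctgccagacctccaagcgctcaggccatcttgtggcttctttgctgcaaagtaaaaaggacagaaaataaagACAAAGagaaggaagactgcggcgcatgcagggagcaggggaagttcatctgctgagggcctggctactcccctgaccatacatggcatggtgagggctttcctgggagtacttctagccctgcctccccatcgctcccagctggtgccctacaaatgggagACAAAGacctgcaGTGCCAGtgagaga

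The *Mobp* window held 6 matches to ACAAAG, the highest number in any of 32851 promoters of this length and reached by 1 of them, whereas 18.7% of all promoters held at least 1. *Opalin* had 2 matches and *Mog* none. CTGGNAC occurred once in *Mog* and once in *Opalin* and in 19.3% of all promoters. The E-box CAGCTG, its own reverse complement, was found once each in *Opalin* and *Slc1a2* and in 16.3% of all promoters, and TATAAA, also searched on both strands, was found once each in *Olig2* and *Agt* and in 13.6%. None of the 4 motifs was found in the window of *Slc6a11*, and the 2 windows of *Slc6a5* held 1 CTGGNAC match each. Matches of different motifs overlapped 0 times, and a match is a description of these letters only.

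A set of 4 libraries stands apart and carries most of what follows. Totals ranged from 52735648 to 80348732 estimated counts per library, and 4 libraries fell under 60000000 (WT control 1, WT PTX 3, KO PTX 2 and KO PTX 3), while the other 7 held 68821582 or more. This line was drawn after the data were seen. Both KO PTX libraries and no KO control library are among the 4, so low total and PTX cannot be told apart within the KO. In WT, 1 of 3 control and 1 of 3 PTX libraries are among them. Each of the 4 exceeded each of the 7 others for 5 of the 10 members, namely *Mobp*, *Mog*, *Opalin*, *Olig1* and *Slc1a2*, against 0.843% of the 34503 genes with a count in any library. KO PTX 3 was the highest of all 11 libraries for 10 of 10 members, against 11.6% of genes with a count. The members were chosen with earlier results of these data known. Here and below, the shares of all genes set beside them are therefore descriptions, not tests.

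*Mobp* encodes a structural protein of compact central myelin (chr9:120149707-120176091, plus strand). Its FPKM was 1.57, 0.21 and 0.04 in WT control 1 to 3 and 0.12, 0.19 and 1.17 in WT PTX 1 to 3. In KO it was 0.07, 0.25 and 0.12 in control 1 to 3, and 1.16 and 6.11 in PTX 2 and 3. The 4 libraries of low total held 1.16 to 6.11 FPKM and the 7 others 0.04 to 0.25 FPKM, with no overlap and a ratio of means of 17.5. *Mobp* was the most abundant oligodendrocyte member, with 4136 estimated counts in the 4 libraries and 584 in the 7.

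*Mog*, which encodes a glycoprotein of the outer surface of central myelin (chr17:37010743-37023398, minus strand), followed the same libraries at a lower level. Its FPKM was 0.33, 0 and 0 in WT control, 0.09, 0 and 0.26 in WT PTX, 0.03, 0 and 0 in KO control, and 0.18 and 1.30 in KO PTX. The library labelled WT PTX 1, at 0.09 FPKM and 14 counts, was the highest of the 7 others, below the 0.18 FPKM of the lowest of the 4. The FPKM ratio of *Mobp* to *Mog* was 4.76 in WT control 1, 4.5 in WT PTX 3, 6.44 in KO PTX 2 and 4.7 in KO PTX 3. The *Mog* counts behind these ratios were 32, 28, 18 and 136. In the same 4 libraries the ratio of *Mobp* to *Olig1* ranged from 3.14 to 9.75 and that of *Mobp* to *Slc1a2* from 0.513 to 1.23, so the members did not keep 1 proportion.

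*Opalin* encodes a transmembrane protein of mature oligodendrocytes (chr19:41061710-41077113, minus strand). It had 11 counts in WT control 1, 12 in WT PTX 3, 15 in KO PTX 2 and 104 in KO PTX 3, and 0 counts in each of the 7 other libraries. These are 0.06, 0.07, 0.08 and 0.57 FPKM. Against a floor of 3 counts over the 3 KO control libraries together, the pooled counts of the 2 KO PTX libraries were at least 82.2-fold higher in counts scaled to library total, with a bound of 21.1 for KO PTX 2 alone and 141 for KO PTX 3 alone. These bounds cover counting error only, and no KO control library was of low total.

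*Olig1* and *Olig2* encode the basic helix-loop-helix factors that specify the oligodendrocyte lineage, and lie close together on chromosome 16 (chr16:91269772-91271933 and chr16:91225457-91228677, both on the plus strand). *Olig1* was at 0.22, 0.04 and 0 FPKM in WT control, 0, 0.02 and 0.12 in WT PTX, 0, 0.02 and 0 in KO control, and 0.37 and 0.91 in KO PTX. *Olig2* was at 0.08 FPKM in WT control 1, 0.02 in KO control 2, 0.07 in KO PTX 2 and 0.48 in KO PTX 3, and at 0 in the 7 libraries that remain, WT PTX 3 among them. *Olig1* therefore separated the 4 libraries from the 7 and *Olig2* did not. *Olig2* counts were 12, 0, 10 and 74 in WT control 1, WT PTX 3, KO PTX 2 and KO PTX 3, so that its absence from WT PTX 3 rests on few counts.

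Summed over the 5 oligodendrocyte members, the level was 2.26, 1.62, 1.86 and 9.37 FPKM in WT control 1, WT PTX 3, KO PTX 2 and KO PTX 3, and 0.04 to 0.29 FPKM in the 7 others. KO PTX 3 exceeded KO PTX 2 for every one of these members, by 5.27-fold for *Mobp*, 7.22-fold for *Mog*, 7.13-fold for *Opalin*, 6.86-fold for *Olig2* and 2.46-fold for *Olig1*. The KO PTX mean of each is therefore set mainly by 1 library. Fewer cells of a type and less RNA per cell cannot be told apart in such bulk libraries.

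**Figure D1:**
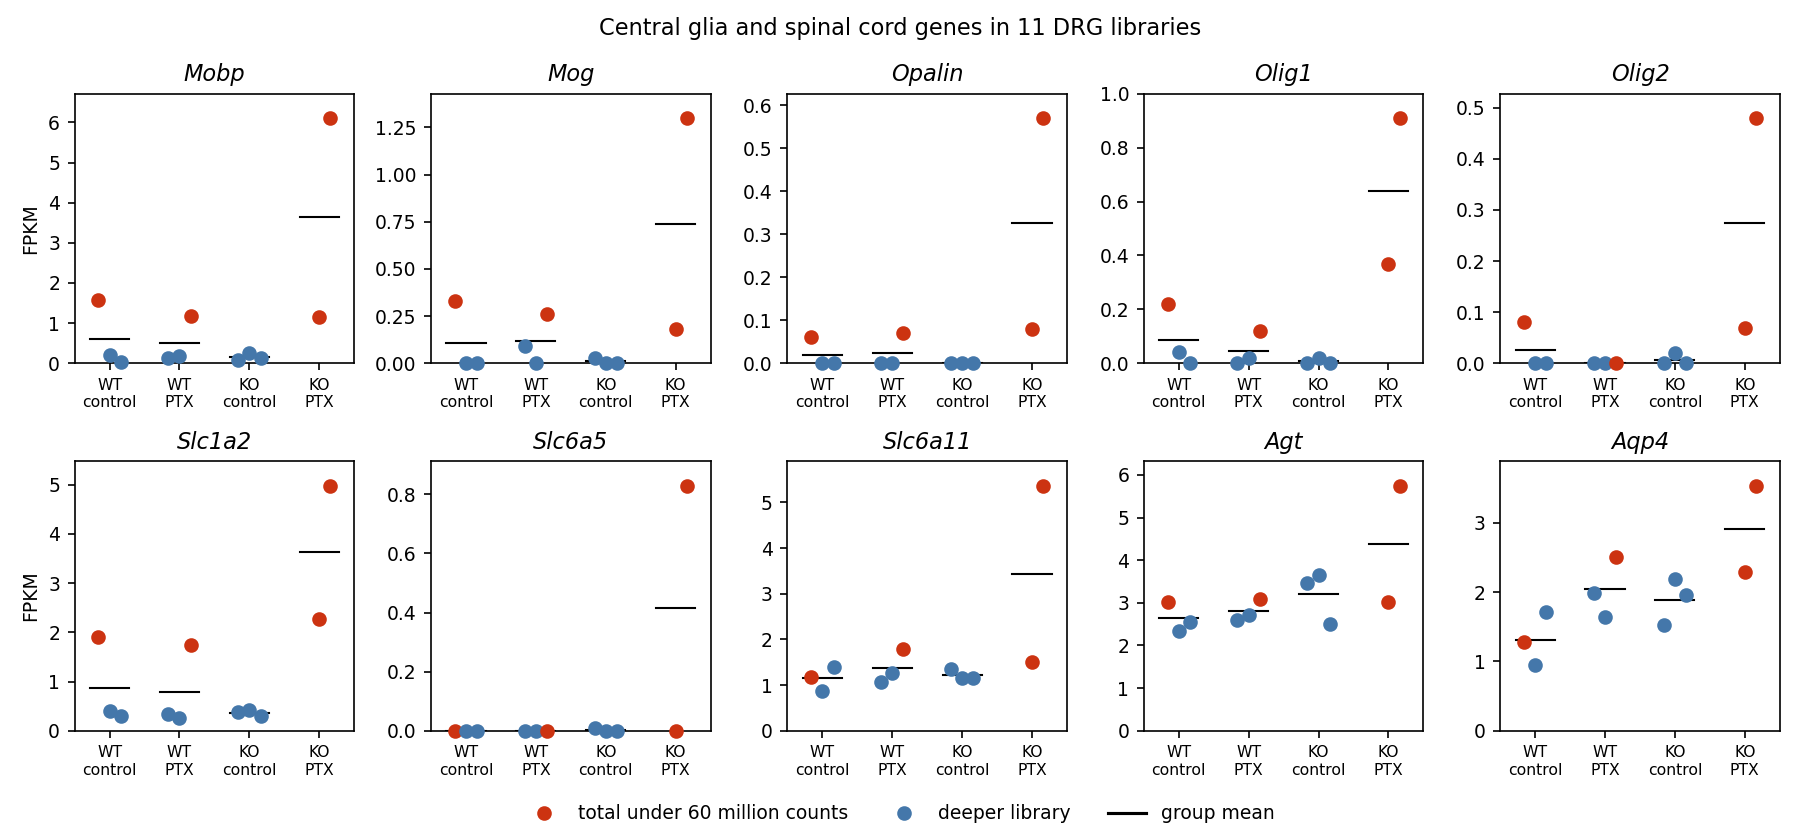
FPKM (linear axes from 0, each with its own scale) of the 10 members in the 11 libraries by group, with red points for libraries under 60000000 counts, blue points for the 7 others and a line at the group mean. KO PTX 3 is the highest point in every panel, at 6.11 FPKM for *Mobp*, and the red points of both WT groups stand above the blue points for *Mobp*, *Mog*, *Opalin*, *Olig1* and *Slc1a2*.

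*Slc1a2*, which encodes the main glutamate transporter of astrocytes (chr2:102658659-102790784, plus strand), was the astrocyte member with the widest range. It was at 1.90, 0.41 and 0.29 FPKM in WT control, 0.35, 0.26 and 1.74 in WT PTX, 0.38, 0.42 and 0.30 in KO control, and 2.26 and 4.98 in KO PTX. The 7 libraries lay within 0.26 to 0.42 FPKM, and the 4 within 1.74 to 4.98 FPKM, 7.90-fold higher on average. With 8568 counts in the 4 libraries and 2593 in the 7, it is also the best counted member that separates them.

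The 3 other astrocyte members, with FPKM of 0.88 or more in every library, did not separate the 2 sets. *Slc6a11*, a GABA transporter (chr6:114131241-114249952, plus strand), was at 1.18, 0.88 and 1.40 FPKM in WT control, 1.06, 1.26 and 1.79 in WT PTX, 1.35, 1.15 and 1.16 in KO control, and 1.5 and 5.37 in KO PTX. Apart from KO PTX 3, its libraries lay between 0.88 and 1.79 FPKM, and WT control 1 was within the range of the 7. *Agt*, which encodes angiotensinogen, the precursor of the angiotensins (chr8:124556534-124569706, minus strand), was the most abundant member, at a mean of 3.15 FPKM over the 11 libraries. Its values were 3.03, 2.34 and 2.54 FPKM in WT control, 2.60, 2.72 and 3.09 in WT PTX, 3.46, 3.65 and 2.51 in KO control, and 3.01 and 5.75 in KO PTX. KO PTX 2 thus lay inside the KO control range for *Agt*. *Aqp4*, the water channel of astrocyte endfeet (chromosome 18), was at 1.28, 0.95 and 1.72 FPKM in WT control, 1.99, 1.64 and 2.51 in WT PTX, 1.52, 2.19 and 1.96 in KO control, and 2.29 and 3.54 in KO PTX. The mean of the 4 libraries over that of the 7 was 2.08 for *Slc6a11*, 1.41 for *Aqp4* and 1.31 for *Agt*, far below the ratios of the oligodendrocyte members.

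*Slc6a5* encodes the transporter that loads glycinergic neurons with glycine (chr7:49910146-49963856, plus strand). KO PTX 3 had 364 counts and 0.83 FPKM, KO control 1 had 8 counts and 0.01 FPKM, and the 9 other libraries had 0 counts. KO PTX 3 thus differed from the 3 other libraries of low total in this gene. WT control 1, WT PTX 3 and KO PTX 2 held 0 *Slc6a5* counts beside 618, 489 and 474 counts of *Mobp*.

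Ordered by mean FPKM over the 11 libraries, the members ran *Agt* at 3.15, *Aqp4* at 1.96, *Slc6a11* at 1.65, *Slc1a2* at 1.21, *Mobp* at 1.00, *Mog* at 0.199, *Olig1* at 0.155, *Slc6a5* at 0.0764, *Opalin* at 0.0709 and *Olig2* at 0.0591. In the 7 other libraries *Slc1a2* and *Mobp* averaged 0.344 and 0.143 FPKM, so the order among the first 5 was kept there, with *Agt* at 2.83, *Aqp4* at 1.71 and *Slc6a11* at 1.18 FPKM. Of these neighbours only *Aqp4* (0.95 to 2.19 FPKM) and *Slc6a11* (0.88 to 1.40 FPKM) overlapped in the 7 libraries. Across the 11 libraries, on the log2(FPKM + 1) scale, *Mobp* had a Pearson r of 0.97 with *Mog*, 0.97 with *Slc1a2*, 0.96 with *Olig1*, 0.93 with *Opalin* and 0.91 with *Olig2*, and without KO PTX 3 these were 0.93, 0.97, 0.88, 0.95 and 0.78. With *Slc6a11*, *Agt* and *Aqp4* its r on this scale was 0.87, 0.79 and 0.63 over 11 libraries and 0.44, 0.29 and 0.18 without KO PTX 3. With *Slc6a5* the r of log2(FPKM + 1) was 0.83 and turned to -0.28 without KO PTX 3. These correlations are descriptions over libraries that share depth and group, and the libraries fall into 2 sets.

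The other genes of the cord, from lists written for this description, did not all follow the members. Of 14 other oligodendrocyte genes, only *Ermn* and *Gpr17* were higher in each of the 4 libraries than in each of the 7. The most abundant of the list, *Bcas1*, *Omg*, *Aspa* and *Tmem88b*, are also transcribed in ganglia, and ranged over 8.08 to 14.73, 7.51 to 12.31, 5.37 to 6.78 and 0.78 to 1.81 FPKM in the 4 libraries and over 8.61 to 11.75, 6.29 to 10.42, 5.91 to 7.16 and 0.48 to 3.40 FPKM in the 7. *Nkx2-2* was at 0 to 0.01 FPKM throughout. Of 7 precursor genes, *Neu4* and *Cspg5* separated the libraries, while the most abundant, *Lhfpl3* and *Bcan*, overlapped. None of 14 other astrocyte genes separated them. *Gfap* was at 0.98 to 4.62 FPKM in the 4 and 0.22 to 1.84 FPKM in the 7, and *Slc39a12* was at 0.07 to 1.38 and 0 to 0.07 FPKM. The most abundant astrocyte genes, *Aldoc* (39.0 to 60.3 FPKM), *Acsbg1* (21.8 to 29.8 FPKM), *Mlc1* (7.33 to 11.3 FPKM) and *Aldh1l1* (1.84 to 3.25 FPKM), overlapped between the 2 sets.

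Of 13 spinal cord neuron genes in the table, the inhibitory genes *Slc32a1*, *Gad1* and *Gad2* separated the 4 libraries from the 7. *Slc32a1*, the vesicular transporter of GABA and glycine, had 32, 36, 29 and 281 counts in WT control 1, WT PTX 3, KO PTX 2 and KO PTX 3, and 0 counts in the 7 others. *Gad1*, which makes GABA, had 263, 280, 308 and 808 counts in the same order and 44 to 65 in the 7. *Lhx1* and *Lhx5*, factors of dorsal cord neurons, had 16 and 8 counts in KO PTX 3, 4 and 0 in KO PTX 2, and 0 in the 9 other libraries. *Chat*, which marks motor neurons, was at 0 to 0.02 FPKM in all 11 libraries, and *Mnx1* was not analysed here. The summed level of the list was 1.94 to 6.65 FPKM in the 4 and 1.16 to 1.51 FPKM in the 7, with *Slc5a7* the most abundant gene by its mean over all 11 libraries, at 0.34 to 1.04 FPKM.

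Genes that neither the DRG nor the adult cord is known for were also present in the same 4 libraries. These lists were written after the values of their genes had been seen, so the choice of genes fixes their direction. Of 8 forebrain transcription factor genes, 6 were higher in each of the 4 libraries than in each of the 7. *Neurod6*, of cortical projection neurons, had 61, 39, 42 and 81 counts in WT control 1, WT PTX 3, KO PTX 2 and KO PTX 3 and 0 in the 7 others, and *Neurod2* had 23, 24, 10 and 29 counts and 0 in the 7 others. The summed level of the 8 genes was 0.76 to 1.13 FPKM in the 4 and 0 to 0.05 FPKM in the 7. Of 10 genes of pluripotent cells, 9 separated the libraries. *Pou5f1*, a factor of embryonic stem cells and germ cells, had 449, 387, 366 and 229 counts and at most 8 in the 7 others, and *Zfp42* had 200, 204, 130 and 111 counts and 0 in the 7 others. Their summed level was 10.9 to 23.3 FPKM in the 4 and 1.72 to 2.19 FPKM in the 7.

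Whether the counts of the members in these 4 libraries came from attached cord or root, as their choice as an index assumes, or from another source, such as reads of another sample or project, was not tested, nor was the part that the forebrain and pluripotent cell genes have in the members' levels. KO PTX 3 differed from the 3 others in proportion: its oligodendrocyte members summed to 9.37 FPKM against 1.62 to 2.26 FPKM, whereas its forebrain genes summed to 1.12 FPKM against 0.76 to 1.13 FPKM and its pluripotent cell genes to 10.9 FPKM against 17.4 to 23.3 FPKM. *Slc6a5*, *Slc32a1*, *Lhx1* and *Lhx5* were highest in KO PTX 3 as well.

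**Figure D2:**
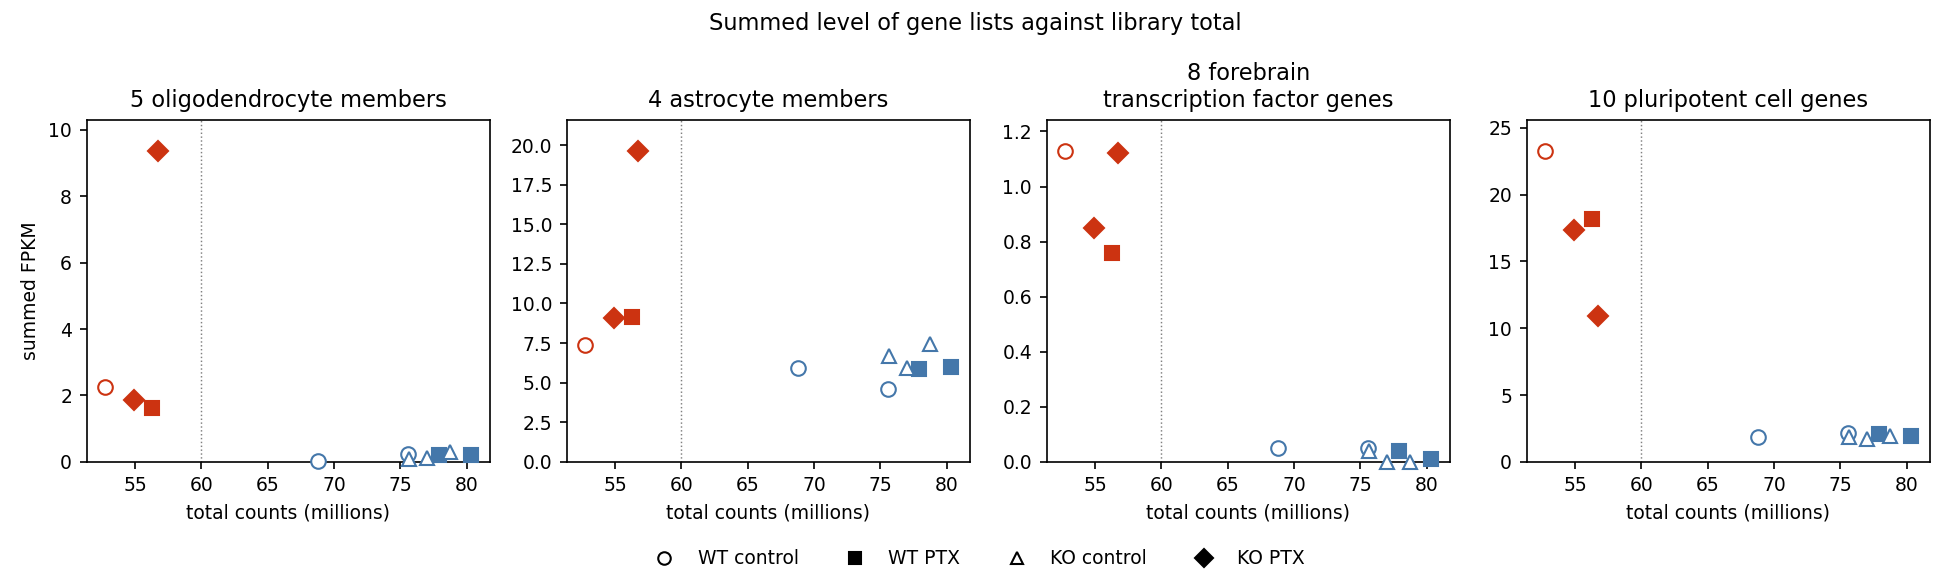
Summed FPKM of 4 gene lists (linear axes from 0) against the total estimated counts of each library (x axis), with a dotted line at 60000000 counts and 1 symbol per group. The 4 libraries left of the line are above the 7 others in the oligodendrocyte, forebrain and pluripotent cell panels, and KO PTX 3 stands out at 9.37 FPKM in the oligodendrocyte panel but not in the forebrain panel.

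Of 43 listed genes of the ganglion itself, 1 was higher and 1 lower in each of the 4 libraries than in each of the 7. Myelin genes shared with Schwann cells summed to 323 to 434 FPKM in the 4 libraries and 382 to 417 FPKM in the 7, and *Mbp*, *Mal* and *Cnp* overlapped, *Mbp* with 109 to 167 and 133 to 163 FPKM. *Ugt8a*, an enzyme of myelin galactolipid synthesis, was the gene that was lower, at 8.21 to 11.7 FPKM in the 4 and 13.3 to 15.4 FPKM in the 7. Myelinating Schwann cell genes, among them *Pmp22*, *Ngfr* and *Prx*, summed to 1360 to 2240 and 1784 to 2062 FPKM. SGC genes, led by *Apoe*, *Fabp7*, *Glul* and *Cdh19*, summed to 1045 to 1433 and 999 to 1269 FPKM, and *Slc1a3*, the other glial glutamate transporter, was the gene that was higher, at 2.26 to 2.93 FPKM in the 4 and 1.74 to 2.17 FPKM in the 7. Sensory neuron genes, led by *Tubb3*, *Prph*, *Calca* and *Nefh*, summed to 3649 to 4392 and 3846 to 4887 FPKM, so that the labelled tissue had its defining markers in every library.

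For lists of other tissues and cell types, the summed levels overlapped between the 4 libraries and the 7. Skeletal muscle genes, led by *Acta1*, *Tnnt3*, *Tnnc2* and *Myh4*, summed to 4.11 to 685 FPKM in the 4 libraries and 19 to 734 FPKM in the 7. Red cell genes, led by *Hbb-bs*, *Hba-a1*, *Hba-a2* and *Hbb-bt*, summed to 78.6 to 206 and 71.5 to 294 FPKM. Leptomeningeal genes, led by *Slc47a1*, *Slc6a13*, *Slc13a4* and *Foxc2*, summed to 8.23 to 14.6 and 7.85 to 18.1 FPKM. Ependymal genes, led by *Foxj1* and *Rsph1*, summed to 10.1 to 10.9 and 7.56 to 11.1 FPKM, with *Ccdc153* and *Tmem212* at or near 0. Microglia genes, led by *Olfml3*, *P2ry12*, *Tmem119* and *Gpr34*, summed to 6.4 to 12.8 and 7.62 to 11.9 FPKM, and only *Sall1* separated the sets, at 0.22 to 0.30 and 0.02 to 0.09 FPKM. The leading ependymal and microglia genes were also present in the 7 libraries, *Foxj1* at 4.95 to 7.45 and *Olfml3* at 2.02 to 6.35 FPKM. Small changes in these sums therefore cannot be told from their spread.

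The design asks first whether PTX changed these genes in WT and in KO. In KO, 8 of 10 members were higher in both PTX libraries than in each of 3 control libraries, all except *Slc6a5* and *Agt*, against 8.57% of genes with a count. The exact two-sided permutation p was 0.1 for each of the 8, the smallest that 2 against 3 libraries allow, and 0.4 for *Slc6a5* and *Agt*. Tests across genes were made with edgeR on genes with a mean of at least 0.5 FPKM, which 5 of 10 members passed (*Mobp*, *Slc1a2*, *Slc6a11*, *Agt* and *Aqp4*). *Mobp* passed this filter through the KO PTX libraries, since its mean without them was 0.416 FPKM. The mean of *Slc1a2* was 0.672 FPKM without them but 0.344 FPKM in the 7 libraries of higher total. *Slc1a2* thus passed only through libraries of low total. The 5 members that did not pass were too low to be tested there.

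After PTX in KO, the edgeR log2 fold change was 4.10 for *Mobp* (SE 1.44, 95% interval 0.89 to 7.30), 3.08 for *Slc1a2* (SE 0.92, 1.02 to 5.14), 1.20 for *Slc6a11* (SE 0.36, 0.41 to 1.99), 0.51 for *Aqp4* (SE 0.21, 0.04 to 0.98) and 0.41 for *Agt* (SE 0.29, -0.23 to 1.05). None of these passed, with an adjusted p of 0.999 each by edgeR, and 0.00663% of 15087 tested genes did. Of the 4 members that also passed the filter without the KO PTX libraries (*Slc1a2*, *Slc6a11*, *Agt* and *Aqp4*), 3 were higher at an unadjusted p under 0.05, against 1.75% of tested genes. The median of these 4 was 0.86, beside -0.01 over all tested genes. Over all 5 tested members, *Mobp* included, 4 were higher at an edgeR unadjusted p under 0.05. Of these 5, it was 1 without KO PTX 3, 1 without KO control 3 and 0 with low total as a covariate. In the same order, 652, 616, 469 and 587 of 15087 tested genes were past that level in either direction. *Mobp* entered through the KO PTX libraries and *Slc1a2* through libraries of low total. The counts over 4 and over 5 members and the median of 4 are therefore descriptions only. Without KO PTX 3 the log2 fold change was 3.03 for *Mobp* and 2.72 for *Slc1a2*, while *Slc6a11* was at 0.39 and *Agt* at -0.13. With the low total as a covariate, added after seeing the data and estimated from the WT libraries because every KO PTX library is of low total, *Mobp* had a log2 fold change of 1.36 (SE 1.12), *Slc1a2* of 0.80 (SE 0.44), *Slc6a11* of 0.98 (SE 0.49), *Aqp4* of 0.36 (SE 0.30) and *Agt* of 0.15 (SE 0.38), with edgeR adjusted p values of 0.935 to 0.967.

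In WT, no member was higher or lower in all PTX libraries than in all control libraries, where 4.24% of genes with a count were higher. *Aqp4* had a log2 fold change of 0.64 (SE 0.19, 95% interval 0.22 to 1.07, edgeR adjusted p = 0.263), and was the nearest to the threshold of any member in this comparison. It passed with DESeq2, at 0.64 and an adjusted p of 0.0497, its lowest adjusted p among the alternatives run for this comparison. DESeq2 called 309 of the 15087 tested genes here. The log2 fold change of *Aqp4* without the 4 libraries was 0.67, with a wider SE of 0.30 (edgeR adjusted p = 0.526). *Mobp* and *Slc1a2* had -0.92 (SE 1.36) and -0.49 (SE 0.89), and without the 4 libraries -0.04 (SE 0.75) and -0.44 (SE 0.23). *Slc6a11* had 0.23 (SE 0.31) and *Agt* 0.08 (SE 0.25). The edgeR test called 0.00663% of genes in this comparison.

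**Figure D3:**
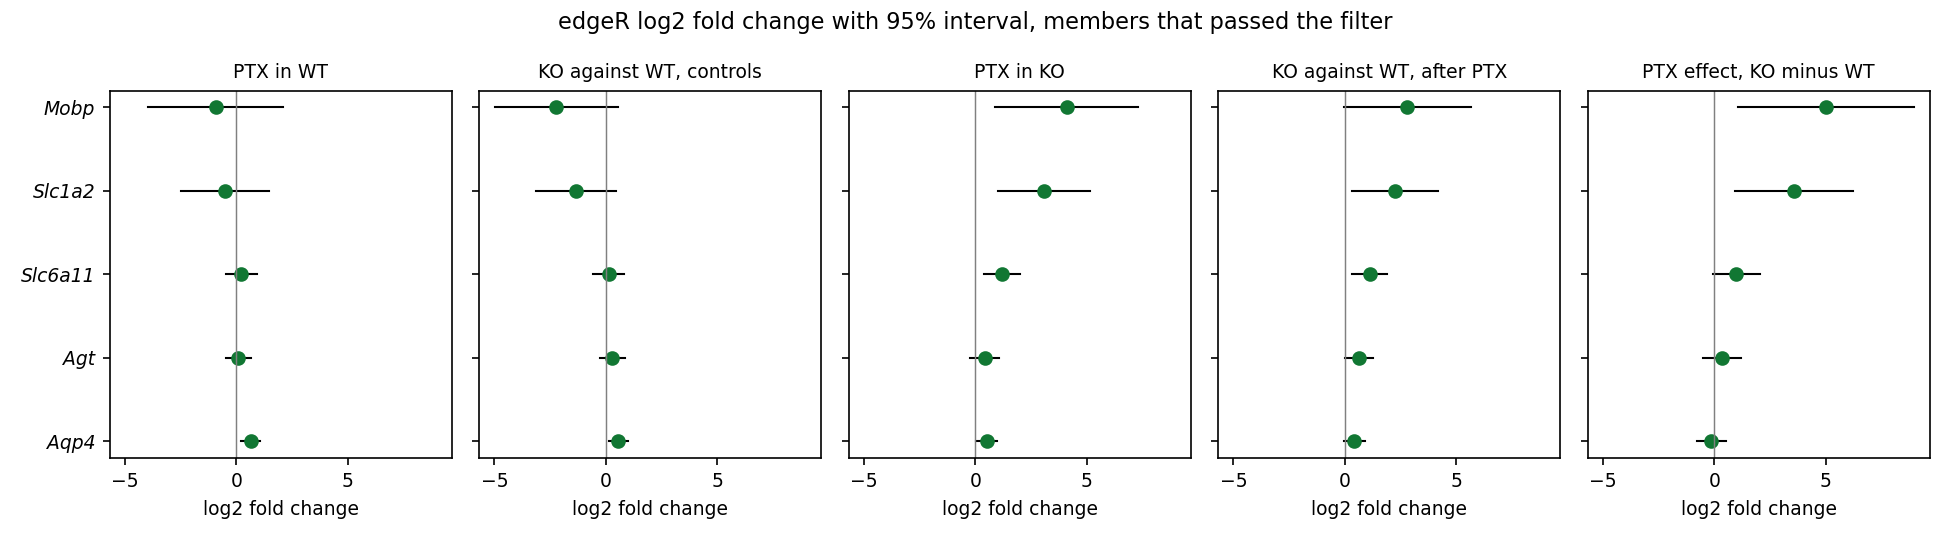
Log2 fold change (x axis) of the 5 members that passed the filter, with 95% intervals from the edgeR fit, in each of 5 comparisons. The points of *Mobp* and *Slc1a2* lie left of 0 in the comparisons of PTX in WT and of controls and at 4.10 and 3.08 for PTX in KO, with the widest intervals of the 5 members.

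The loss of *Gpr37l1* was compared within control and within PTX libraries. Among controls, no member separated KO from WT, while 3.1% of genes with a count were higher in every KO library. *Aqp4* had a log2 fold change of 0.56 (SE 0.19, 95% interval 0.14 to 0.99, edgeR adjusted p = 0.657), and without the 4 libraries 0.63 (SE 0.25). *Mobp* and *Slc1a2* had -2.21 (SE 1.24) and -1.34 (SE 0.81), with WT control 1 the library that set them, since without it they were 0.16 and 0.17. *Agt* and *Slc6a11* had 0.29 (SE 0.25) and 0.13 (SE 0.31). The edgeR test called 0.00663% of tested genes among controls and none of the 5 members.

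After PTX, 4 of 10 members were higher in both KO libraries than in each of the 3 WT libraries (*Opalin*, *Olig1*, *Olig2* and *Slc1a2*), against 7.73% of genes with a count. *Olig2* had 0 counts in all WT PTX libraries, and the pooled counts of the KO PTX libraries were at least 53.8-fold higher in counts scaled to library total, taking 3 counts over the 3 WT PTX libraries as the floor. The bound was 13 for KO PTX 2 alone and 93.3 for KO PTX 3 alone. These bounds cover counting error only. Both KO PTX libraries were of low total, and of the WT PTX libraries only WT PTX 3 was, so the bounds do not compare like libraries. The edgeR log2 fold change was 2.80 for *Mobp* (SE 1.28), 2.24 for *Slc1a2* (SE 0.87), 1.11 for *Slc6a11* (SE 0.35), 0.62 for *Agt* (SE 0.28) and 0.43 for *Aqp4* (SE 0.21), with an adjusted p of 0.993 each, where 0.0133% of genes passed. At an edgeR unadjusted p under 0.05, 2 of the 4 members that passed the filter without the KO PTX libraries were higher (*Slc1a2* and *Slc6a11*), against 1.81% of tested genes. Because *Slc1a2* passed the filter only through libraries of low total, this count is a description only. Over all 5 tested members, *Mobp* included, the count was also 2. It was 0 of 5 without KO PTX 3 and 1 of 5 without WT PTX 1 or without WT PTX 2. In the same order, 535, 366, 314 and 478 of 15087 tested genes were past that level in either direction. When only these 2 groups were fitted, *Mobp* was called at 2.65 with an edgeR adjusted p of 0.0438, but it was among the tested genes only through the KO PTX libraries where it was high, so this call carries no weight. Within the libraries of low total, 2 KO PTX libraries against 1 WT PTX library with the lone library assumed to vary like the others, the values were 1.62 for *Mobp* (SE 0.68), 1.04 for *Slc1a2* (SE 0.35), 0.93 for *Slc6a11* (SE 0.54), 0.50 for *Agt* (SE 0.39) and 0.21 for *Aqp4* (SE 0.27).

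The PTX effect was then compared between genotypes. The difference of log2 fold changes, KO minus WT, was 5.02 for *Mobp* (SE 1.77), 3.58 for *Slc1a2* (SE 1.20), 0.97 for *Slc6a11* (SE 0.47), 0.33 for *Agt* (SE 0.38) and -0.13 for *Aqp4* (SE 0.29). No member passed, with edgeR adjusted p values of 0.724 to 0.912, and 0.00663% of tested genes did. With the low total as a covariate the difference was 1.31 for *Mobp* (SE 1.37) and 1.00 for *Slc1a2* (SE 0.53). The comparisons share their control libraries, so their values for a member are not independent of one another.

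**Figure D4:**
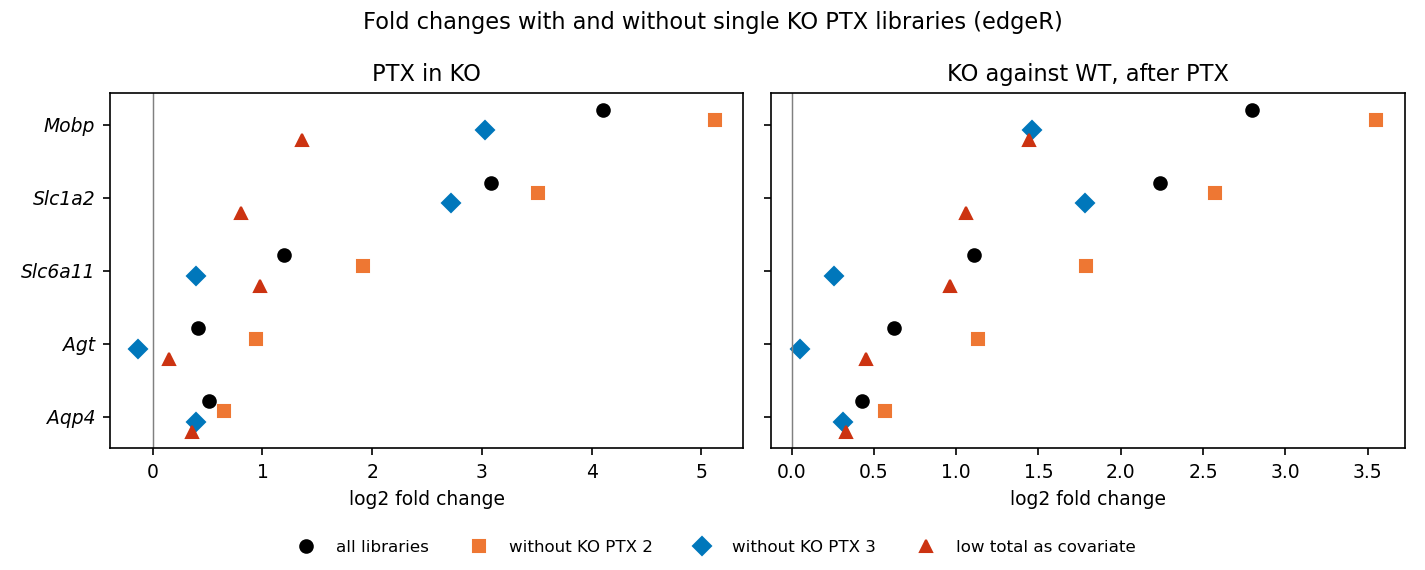
Log2 fold change (edgeR, x axis) of the 5 tested members in 2 comparisons, PTX within KO (left) and KO with WT after PTX (right), with all libraries, without KO PTX 2, without KO PTX 3 and with low total as a covariate. Leaving out KO PTX 3 moves *Slc6a11* to 0.39 and *Agt* to -0.13 for PTX in KO, while *Mobp* and *Slc1a2* move most with the covariate.

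No gene of the 13 lists passed the edgeR test in any of the 5 comparisons, either among other oligodendrocyte genes (5 of 14 tested) or other astrocyte genes (9 of 14 tested). For PTX in KO the medians were 0.27 and 0.31, and 1 of 5 and 2 of 9 were higher at an edgeR unadjusted p under 0.05. The median was 0.86 for the 4 members that passed the filter without the KO PTX libraries and -0.01 over all tested genes. The 0.86 is a description only, because *Slc1a2* passed the filter only through libraries of low total. Of the pluripotent cell genes, written down after their values were seen, 4 of 10 were tested, and no median or count of higher genes is given for them because of that choice.

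Genes outside the list most like the members over the 11 libraries, by Pearson r with the members' mean z score of log2(FPKM + 1), were *Csnk2b* (r = 0.94), *Sugp1*, *Cops7a*, *Ap2b1*, *Rapgefl1*, *Dazap1*, *Prcc*, *Cx3cl1* and *Mbd6* (r = 0.92). The mean z score of KO PTX 3 was 2.63, and that of the 10 other libraries lay between -0.69 and 0.30. Without KO PTX 3, r was 0.76 for *Csnk2b*, 0.57 for *Rapgefl1* and 0.81 for *Ap2b1*. *Cx3cl1*, a chemokine of neurons, was at 5.02 FPKM in KO PTX 3 and at 1.46 to 2.53 FPKM in the 10 others, whereas *Ap2b1* lay within 36.4 to 40.7 FPKM over all 11.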

How the data were processed

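DRG RNA-Seq libraries were prepared from poly(A) RNA with a strand-keeping kit, and whether the counting kept strands apart is not given in the sources used here. The authors deposited 1 table with FPKM values and estimated counts per gene and library, and the submitters' processing notes name cutadapt, FastQC, HISAT2 and StringTie with no versions and the build mm10. Estimated counts were deposited as whole numbers and used as such. Of the genes in the table, 36532 matched GENCODE M21 by identifier and 33500 had the same coordinates (for *Mobp* they differed). No gene that overlaps a member had a mean above 0.01 FPKM where it is in the table.

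Counts were fitted with edgeR 4.0.16 (quasi-likelihood test, TMM, R 4.3.3) over all 11 libraries with a term per group and labelled sex, on 15087 genes with a mean of at least 0.5 FPKM, with Benjamini-Hochberg adjustment and a threshold of 0.05. A model for these libraries is not given in the sources used here. Alternatives used DESeq2 1.42.0, limma 3.58.1 on log2(FPKM + 1) or log2(FPKM + 0.1), DESeq2 size factors, no filter, no covariate, a replicate block, only the groups compared, and each replicate left out. FPKM of a single member was compared by exact permutation over libraries. The edgeR step was tested on simulated data. Named genes were the 10 members, *Gpr37l1*, the most abundant genes of each marker list (up to 4) and the 10 genes most correlated with the members, and further list genes are named where they separated the libraries or after their values were seen. Some genes that this rule names are not reported here. Sequences and motif shares come from RefSeq promoters (GRCm38.p6).

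The members and lists were chosen with earlier results of these data known. The forebrain and pluripotent cell lists, the line between low and other totals, and the 3 alternatives that use it were chosen after the values were seen. Floors of 3 counts cover counting error only. Replicate numbers follow the sample descriptions, in which the 2 KO PTX libraries are numbered 2 and 3, whereas their titles number them 1 and 2.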

Additional observations from a re-analysis of the deposited data

How the results depend on the processing

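No tested member passed the edgeR threshold with any library left out, and members that passed elsewhere were *Aqp4* for PTX in WT with DESeq2 (1 member, log2 fold change 0.64) and *Mobp* for KO against WT after PTX when only those groups were fitted (1 member, 2.65, a gene that met the filter only through the KO PTX libraries). Of the log2 fold changes of single members, 378 alternative values kept direction and side of the threshold, 20 reversed and 2 became significant. The low levels of *Mog*, *Opalin*, *Olig1*, *Olig2* and *Slc6a5*, 0.0591 to 0.199 FPKM on average, left them under the filter, and the 2 KO PTX libraries, both of low total, limit each comparison that uses them. The cause of each change below was not tested, beyond what a setting leaves out. Medians of the members below are over the 5 tested, except without the filter. *Mobp* is among them and met the filter only through the KO PTX libraries, so these medians are descriptions only. In the main edgeR fit they were 0.08 and 1.20 for the PTX comparisons in WT and KO. For KO against WT they were 0.13 among controls and 1.11 after PTX, and for the difference 0.97.

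With DESeq2, 309 and 29 genes passed for the PTX comparisons in WT and KO, 42 for KO against WT among controls, 10 after PTX and 12 for the difference of PTX effects, against 1, 1, 1, 2 and 1 with edgeR. For PTX in WT, limma with either pseudocount called 0 genes (1861 and 1858 at an unadjusted p under 0.05), as did edgeR without the covariate (1802). When only the groups compared were fitted, the counts were 5 and 4 for the PTX comparisons in WT and KO, and 5 in the comparison of genotypes after PTX. Without the filter, 2 genes passed for PTX in WT, and the median log2 fold change of the members, then 10, was -0.36 and 4.14 for the PTX comparisons in WT and KO, with -1.58 for KO against WT among controls, 2.62 after PTX and 4.45 for the difference. With limma and a pseudocount of 1, which lowers the change of low genes, the median was 0.78 for PTX in KO, 0.69 for the genotypes after PTX and 0.64 for the difference, and with a pseudocount of 0.1 *Mobp* had 0.05 for PTX in WT.

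With low total as a covariate, 2 genes passed for PTX in KO and 2 for the difference. The median of the 5 tested members for PTX in KO was then 0.8, against 1.20 in the main edgeR fit. With this covariate *Mobp* had 0.05 for PTX in WT and 0.13, with *Slc1a2* at 0.07, for KO against WT among controls. Without the libraries of low total, 0 genes passed with edgeR for PTX in WT (1501 at an unadjusted p under 0.05) and 2 for KO against WT among controls, *Agt* had -0.02 for PTX in WT and *Mobp* 0.33 for KO against WT among controls. Within the libraries of low total, 48 genes passed for KO against WT after PTX, but this sets 2 libraries against a lone one, assumed to vary like the others, and is no replicated comparison.

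With 1 library left out at a time, 0 to 30 genes passed for PTX in WT (0 without WT control 1, WT PTX 1 or WT PTX 2, where edgeR gave 1530, 1088 and 1713 at an unadjusted p under 0.05, 7 without WT control 2 and 30 without WT control 3). The range was 1 to 7 for PTX in KO (7 without KO control 2 or KO PTX 2), 1 to 4 for KO against WT among controls (4 without KO control 3), 2 to 7 after PTX (7 without KO PTX 2) and 1 to 6 for the difference (6 without KO PTX 2). The median of the 5 tested members, *Mobp* among them, ranged from -0.01 to 0.73 for PTX in WT and from 0.39 to 1.92 in KO. It ranged from -0.06 to 0.43 for KO against WT among controls, 0.31 to 1.79 after PTX and 0.16 to 1.69 for the difference. The lowest 0.39, 0.31 and 0.16 came without KO PTX 3 and the highest 1.92, 1.79 and 1.69 without KO PTX 2. For PTX in WT, *Mobp* ranged from -2.06 to 1.36 and *Slc1a2* from -1.63 to 0.89, both highest without WT control 1 (*Slc1a2* 0.01 without WT PTX 1 and 0.13 without WT PTX 2), and *Agt* from -0.01 to 0.23 (0 without WT PTX 3). *Agt* ranged from -0.13 to 0.94 for PTX in KO and from -0.22 to 0.86 for the difference, both lowest without KO PTX 3. For KO against WT among controls, *Mobp* ranged from -3.32 to 0.16 and *Slc1a2* from -1.94 to 0.17, both highest without WT control 1, and *Slc6a11* from -0.06 to 0.43 (lowest without KO control 1). For the difference *Aqp4* ranged from -0.33 to 0.10 (0.02 without WT control 2 or KO PTX 2, 0.10 without KO control 2).

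With a replicate block the median of the 5 tested members was 0.09 and 1.27 for the PTX comparisons in WT and KO. It was 0.14 for KO against WT among controls, 1.15 after PTX and 1.02 for the difference. Without the block these medians were 0.08, 1.20, 0.13, 1.11 and 0.97, and 1, 1, 1, 2 and 1 genes passed with and without it. Deviations of libraries with the same number correlated at -0.23 to 0.15, which shows no clear pairing by number. Deviations within groups this small cannot exclude a pairing. The block changed no member's call.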
